A study of Mus musculus with 2 samples.

Results

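Broad H3K4me3 domains were examined in 2 mouse embryonic fibroblast (MEF) lines, a wild-type line (Lsh+/+, WT) and a line without the chromatin remodeller Lsh (Lsh-/-, Lsh_KO). Each line gave 1 library. Both lines were grown in DMEM with fetal bovine serum, digested with micrococcal nuclease (MNase) to mostly single nucleosomes and precipitated with an Abcam antibody against H3K4me3. The labels give no strain, age, clone number or deletion allele, and no input library was used here. In each library, 200 bp windows with at least 6 reads were joined across gaps of up to 1000 bp, and a region was kept when it held at least 20 reads. Regions of both libraries that overlapped were merged. A broad domain is a merged region on chromosomes 1 to 19 that holds a region of each library and is at least 4000 bp wide. This gave 350 domains, 3.41% of the 10257 regions shared by both libraries and part of 11797 merged regions in all. The other 9907 shared regions were narrower. Because the same window counts chose the domains, their widths and their ratios between the lines are descriptions, and with 1 library per line no test of the genotype was possible.

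H3K4me3, trimethylation of lysine 4 of histone H3, is written at promoters by the SET1 and MLL complexes, several of which bind unmethylated CpG islands through CXXC domains. At most active promoters it covers only the nucleosomes beside the transcription start. Domains that extend far into the gene are known from many cell types, where they often lie over regulators of cell identity and over genes that are transcribed at a steady high level. Lsh, also called Hells, is a SNF2-family remodeller needed for normal DNA methylation, most of all over repeats. MEFs are mesenchymal cells of the embryo body, so transcription factors of limb, heart and body wall and the genes of matrix and growth factor signalling are the identity genes expected to be marked in them.

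Gene names came from the reads: 25-base reads that matched a RefSeq promoter exactly placed that gene's start on the build of the files, mm8. Of 32851 promoters in the RefSeq table, 11626 starts of 10504 genes were placed, 99.88% of them with the strand that RefSeq gives. Promoters of 5 genes whose domains the results turn on are shown with each CG dinucleotide, the site of DNA methylation, in capitals. The sequences are the 250 bases before the start, 5′ to 3′ in the direction of the gene, from RefSeq on GRCm38.p6. Hand2os1 (chr8:57320860-57321109, minus strand), Fendrr (chr8:121083111-121083360, minus strand) and Hoxa2 (chr6:52164832-52165081, minus strand) led the domains with fewer reads in Lsh_KO. Spry2 (chr14:105896820-105897069, minus strand) lay in a domain of similar width in both lines, and Col3a1 (chr1:45311288-45311537, plus strand) in a domain that was broad in Lsh_KO alone.
Hand2os1: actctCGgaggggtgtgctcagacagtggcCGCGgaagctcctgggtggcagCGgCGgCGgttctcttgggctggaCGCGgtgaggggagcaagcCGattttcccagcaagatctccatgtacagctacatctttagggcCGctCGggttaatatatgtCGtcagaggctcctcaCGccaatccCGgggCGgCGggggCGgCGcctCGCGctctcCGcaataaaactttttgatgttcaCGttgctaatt
Fendrr: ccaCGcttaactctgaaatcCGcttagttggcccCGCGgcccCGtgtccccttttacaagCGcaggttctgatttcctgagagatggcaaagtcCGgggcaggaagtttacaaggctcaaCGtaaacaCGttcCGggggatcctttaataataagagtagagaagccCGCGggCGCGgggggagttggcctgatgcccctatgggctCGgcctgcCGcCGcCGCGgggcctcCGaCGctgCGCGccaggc
Hoxa2: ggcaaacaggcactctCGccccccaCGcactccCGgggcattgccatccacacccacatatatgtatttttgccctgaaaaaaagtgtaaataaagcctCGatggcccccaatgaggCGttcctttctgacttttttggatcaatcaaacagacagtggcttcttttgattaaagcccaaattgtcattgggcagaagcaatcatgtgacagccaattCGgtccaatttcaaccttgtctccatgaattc
Spry2: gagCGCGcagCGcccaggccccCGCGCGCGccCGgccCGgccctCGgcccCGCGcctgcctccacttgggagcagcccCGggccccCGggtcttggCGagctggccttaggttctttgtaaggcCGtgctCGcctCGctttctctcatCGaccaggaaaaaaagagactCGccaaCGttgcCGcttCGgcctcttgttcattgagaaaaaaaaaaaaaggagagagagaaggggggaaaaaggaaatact
Col3a1: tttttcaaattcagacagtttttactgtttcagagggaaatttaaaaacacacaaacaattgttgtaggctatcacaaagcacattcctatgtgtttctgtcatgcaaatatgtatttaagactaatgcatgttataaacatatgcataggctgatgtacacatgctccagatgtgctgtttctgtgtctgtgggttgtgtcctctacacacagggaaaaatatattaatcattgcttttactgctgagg
The Hand2os1, Fendrr and Spry2 stretches held 22, 23 and 23 CG dinucleotides, Hoxa2 held 6 and Col3a1 held 0. The leading lower domains thus included both CG-dense and CG-sparse promoters. Over the 314 starts placed in broad domains the median was 17 CG (quartiles 11 and 25), against 18 (13 and 25) over 7588 starts in narrower shared regions and 6 over all promoters of the table.

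The WT library held 2471782 distinct reads (1 per position and strand) and the Lsh_KO library 2790389. Ratios are Lsh_KO over WT, scaled by 1.421, the median ratio of 18150 windows of 2 kb marked in both libraries. This scale lies 0.33 above that of total reads on the log2 scale, and without a spike-in a global difference in H3K4me3 cannot be told apart from a difference in precipitation. All intervals are 95%. Those of ratios and of shares of reads cover counting error at most, since the fragments were amplified and carry no molecular identifiers. Those of the median log2 ratio and of shares of regions, starts or genes treat these as independent. No interval covers the spread between cultures, since each line gave 1 library. The label of the cells was checked on promoters of marker genes. Of 10 fibroblast markers in the promoter table, 6 had their start in a shared region (Col3a1, Col6a1, Vim, Twist1, Prrx1 and Fbn1) and Col3a1 lay in a broad domain. Col1a2, Sparc, Pdgfra and Postn were not counted as marked. Of 40 markers of epithelial, haematopoietic, endothelial, neural, muscle and hepatic cells, 2 were marked (Kdr and Foxa2), and neither in a broad domain. The Foxa2 region, 3600 bp wide with 127 WT and 227 Lsh_KO reads, lay just below the width minimum. A marker counted only when reads placed its start inside a shared region, so an unplaced start counted as unmarked in every cell type. For Pdgfra, a broad domain described below lies where RefSeq order puts Pdgfra and Kit.

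The 350 domains were mostly just above the width minimum. Their width ran from 4000 to 51000 bp with a median of 4600 bp: 219 were narrower than 5000 bp, 68 reached 6000 bp, 20 reached 8000 bp and 8 passed 10000 bp. Together they spanned 1.84 Mb and held 57498 WT reads (2.33% of the library, interval 2.31 to 2.34) and 81162 Lsh_KO reads (2.91%, 2.89 to 2.93). Of all reads in shared regions they took 9.47% in WT and 9.09% in Lsh_KO. A domain held a median of 153 WT reads (37 to 1009) and 210 Lsh_KO reads (33 to 1789). Per kb of domain the medians were 30.6 and 44.3 reads, close to the 32.9 and 48.3 of narrower shared regions. By reads per kb of whole width, gaps included, the domains were thus longer rather than denser.

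Few domains were continuous. In WT a domain consisted of a median of 4 blocks of windows with at least 6 reads, which covered 64.0% of its width. In Lsh_KO it consisted of 3 blocks, which covered 75%. Only 1 domain was a single block in both libraries. The longest block had a median length of 1800 bp (WT) and 2200 bp (Lsh_KO). The highest window held a median of 37 reads in WT and 54 in Lsh_KO, more than the 28 and 40 of narrower shared regions. In 288 domains the highest windows of both libraries lay within 1 kb of each other. At the width threshold, the 56 domains of exactly 4000 bp held a median of 120.5 WT and 185.5 Lsh_KO reads, and the 70 shared regions of 3800 bp, just outside, held 125 and 179.5. Of the domains of 4000 bp, those with the fewest WT reads were at chr8:72694001-72698000 (48 WT and 40 Lsh_KO reads), at Rtn4rl2 (56 and 119) and at Icam5 (57 and 94). Of the regions of 3800 bp, those with the most WT reads were at chr2:152426801-152430600 (234 and 314), at Zcchc3 (197 and 255) and at Ddx39b (175 and 241). WT reads ran from 48 to 244 inside the threshold and from 37 to 234 outside, so both sides overlapped in reads.

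The 8 domains with the most reads per kb included genes of glycolysis and of the actin skeleton. Flnc, which encodes the actin cross-linker filamin C, had 58.5 WT and 86.8 Lsh_KO reads per kb over 4000 bp. The domain over Gapdh, a glycolytic enzyme, had 51.0 and 87.9, and that over Fscn1, the actin bundler fascin, had 64.0 and 67.6. Kmt2d, itself a methyltransferase of H3K4, had 61.0 and 67.0 reads per kb, and Ttc9c had 53.3 and 78.3. The other 3 held no placed start. They lay at chr1:134958401-134962800, where RefSeq order puts Ppp1r15b between the nearest placed starts, at chr13:114735401-114739400, where it puts Snx18 and Hspb3, and at chr13:63248801-63253800, between Aopep and Fancc. None of these 8 was called different between the lines.

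Most broad domains had similar levels in both lines after scaling. The median log2 ratio was 0.02 (interval -0.02 to 0.06, quartiles -0.23 and 0.21), with 185 domains above 0 and 165 below, and 299 of 350 (85.4%) lay within 1.5-fold, as did 86.8% of narrower shared regions. A domain was called when the ratio was at least 2-fold and its exact conditional interval excluded 1, with at least 20 reads together. By this rule 1 domain was higher in Lsh_KO, beside 0.965% of all shared regions, and 15 were lower (4.29%, interval 2.42 to 6.97), beside 1.56% of all shared regions and 1.46% of narrower ones. Scaled by total reads instead, 9 were higher and 7 lower, beside 4.77% and 0.585% of all shared regions. At 1.5-fold, 17 were higher (4.86%, 2.85 to 7.66) and 33 lower (9.43%, 6.58 to 12.99), beside 5.63% and 4.08%. A domain holds more reads than a narrow region, and a region that is broad in 1 library alone can enter through that library, so these shares are not a comparison of equals: all 15 lower domains reached 4000 bp in WT and 1 of them did in Lsh_KO.

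**Figure D1:**
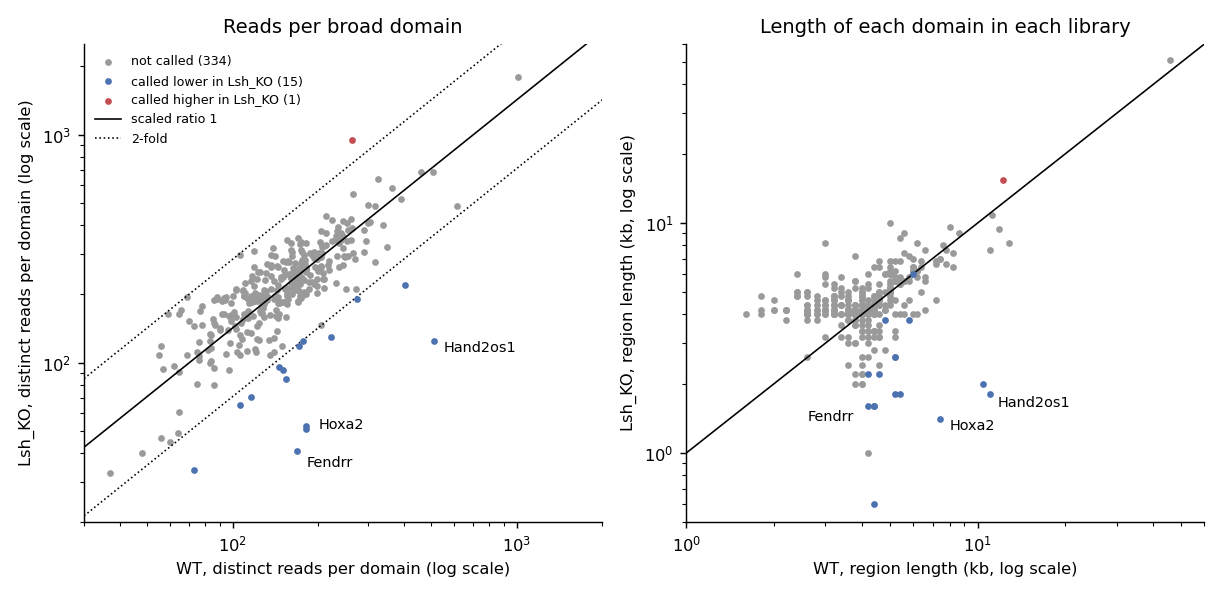
Each point is 1 of the 350 broad domains. Left, distinct reads in WT (x) and Lsh_KO (y), log scales, with the line of scaled ratio 1 and dotted lines at 2-fold; right, length in each library in kb, log scales, with the line of equal length. Most domains lie along the left line, with 15 called lower (blue) and 1 called higher (red), and most of the 15 also lie far below the line of equal length.

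By point estimate, the 3 largest decreases were at Hand2os1, Fendrr and Hoxa2. The Hand2os1 domain (chr8:60209201-60220200, mm8, 11000 bp) had 512 reads in WT and 124 in Lsh_KO. The scaled level was 5.87-fold lower in Lsh_KO, with an interval of 4.81 to 7.20. Hand2os1 is a long noncoding RNA transcribed away from Hand2, a basic helix-loop-helix factor of heart, limb and branchial arch. Its start was placed at 60213001, and RefSeq order puts Hand2 between it and the next placed start. The Fendrr domain (chr8:123968601-123972800, 4200 bp) had 169 reads in WT and 41 in Lsh_KO, a level 5.86-fold lower (4.14 to 8.45). Fendrr is a long noncoding RNA beside Foxf1, a forkhead factor of lateral mesoderm, and its start was placed at 123969087. The Hoxa2 domain (chr6:52092401-52099800, 7400 bp) had 182 and 51 reads, a level 5.07-fold lower (3.70 to 7.06). Hoxa2 is a homeobox factor that patterns hindbrain and neural crest, and its start was placed at 52094414. In all 3 domains the log2 ratio scaled by total reads was -2.22, -2.22 and -2.01.

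Along these domains the loss was uneven. In windows counted per kb from the left edge, the Hand2os1 domain had 182 WT and 0 Lsh_KO reads in the third kb, where a count of 0 allows up to 3, and 194 and 11 in the seventh. In the fifth kb it had 66 WT and 87 Lsh_KO reads before scaling, a step just upstream of the start, which lies in the fourth kb. The length of the Lsh_KO region fell to 1800 bp from 11000 bp. The Fendrr domain had 51 WT and 32 Lsh_KO reads in the first kb, which holds the start, and 86 and 3 in the fourth, upstream of it. Its Lsh_KO region was 1600 bp long. The Hoxa2 domain was lower in every kb, from 72 WT and 22 Lsh_KO reads in the first to 44 and 7 in the sixth, and 1400 bp remained in Lsh_KO. Over the 15 lower domains, 8 held at least 1 step, of 1 kb or a shorter last step, in which Lsh_KO had more window reads than WT before scaling. Of their 95 steps, 22 had 5 or fewer Lsh_KO reads.

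**Figure D2:**
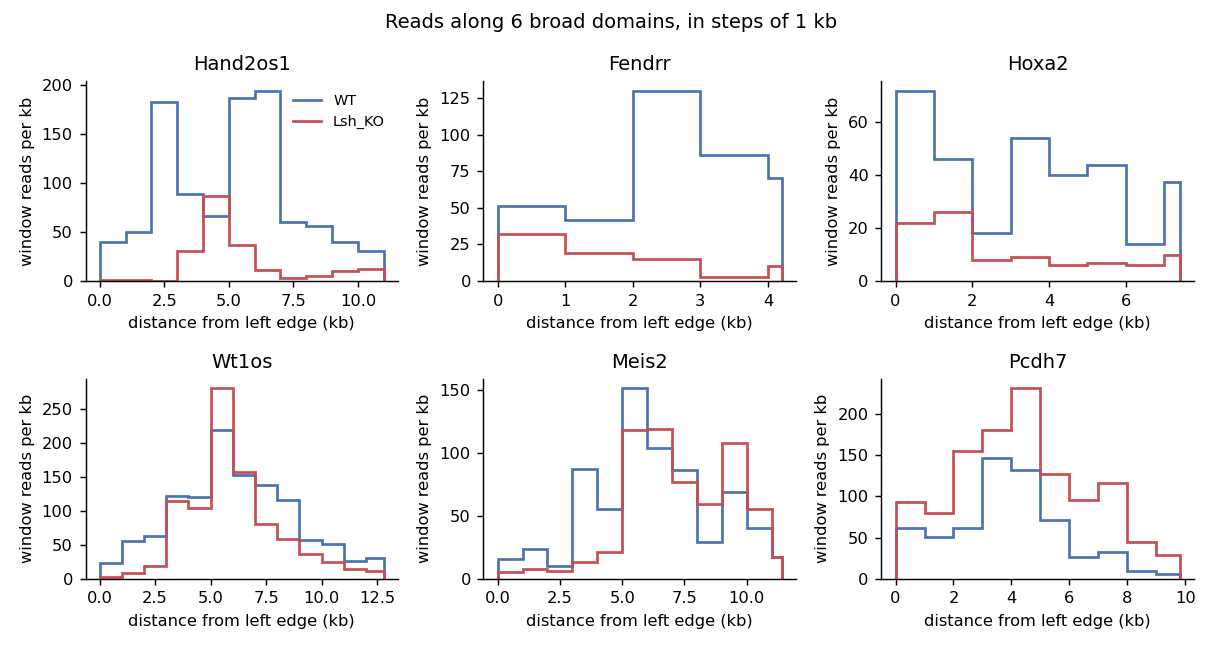
Window reads per kb (y) of WT (blue) and Lsh_KO (red), unscaled, in steps of 1 kb from the left edge of each of 6 broad domains (x, kb), with a shorter last step expressed per kb. Hand2os1 keeps most of its Lsh_KO reads from the fourth to the sixth kb (66 WT and 87 Lsh_KO window reads in the fifth). Fendrr and Hoxa2 are lower in each step, and Wt1os keeps its centre. Meis2 is lower on its left side (87 WT and 13 Lsh_KO window reads in the fourth kb). From the ninth to the eleventh kb Meis2 is higher in Lsh_KO before scaling (29 and 59 in the ninth). Pcdh7 is higher in Lsh_KO in each step before scaling.

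A further 7 domains complete the 10 lower calls with the interval farthest from 1. None of them held a placed start, so each is given by position in mm8 and by the genes that RefSeq order puts next to it. The domain at chr4:9771201-9775600 had 181 reads in WT and 53 in Lsh_KO, a level 4.85-fold lower (3.56 to 6.72), and the nearest placed starts lay several Mb away, with 45 genes between them. The domain at chr14:62192401-62202800, 10400 bp wide, had 403 and 220 reads, a level 2.60-fold lower (2.20 to 3.08). It lies in a stretch of 63 genes without a placed start, among them Gata4, a heart and endoderm factor. In the seventh kb it had 206 WT and 259 Lsh_KO window reads, and in the third 83 and 5. The domain at chr10:76046001-76050400 lies between Lss and Col6a1, with the collagen gene Col6a2 among the genes between, and its 73 and 34 reads gave a level 3.05-fold lower (2.00 to 4.73). At chr8:37056001-37061800, near Ppp1r3b, Eri1 and Mfhas1, the counts were 154 and 85, a level 2.57-fold lower (1.96 to 3.40). At chr5:75434001-75438800, between Gsx2 and Kdr, the counts were 222 and 130, a level 2.43-fold lower (1.95 to 3.04). The genes between them are Pdgfra and Kit, a pair of receptor tyrosine kinases of which Pdgfra is a fibroblast marker. At chr2:25084001-25089600, between Tmem203 and Anapc2, the counts were 150 and 93, a level 2.29-fold lower (1.76 to 3.00). At chr1:186429601-186433800, near the homeobox gene Hlx, the counts were 116 and 71, a level 2.32-fold lower (1.71 to 3.17). By point estimate these 7 domains thus had smaller decreases than those at Hand2os1, Fendrr and Hoxa2, with the chromosome 4 domain closest to them. The intervals of the chromosome 4 and chromosome 10 domains overlapped those of Fendrr and Hoxa2, so the counts do not separate them.

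The remaining 5 lower calls stood between 2.03-fold and 2.32-fold. They are named here after their values were seen. The 5730596B20Rik domain (chr6:52104601-52109800), between Hoxa2 and Hoxa5 in the HoxA cluster, had 177 reads in WT and 124 in Lsh_KO, a level 2.03-fold lower (1.603 to 2.57). In the first kb it had 96 WT and 171 Lsh_KO window reads and in the fifth 45 and 3. The domain at chr1:78076201-78080600 lies between Epha4 and Sgpp2, where RefSeq order puts Pax3, a neural crest and muscle factor, and its 171 and 119 reads gave a level 2.04-fold lower (1.61 to 2.60). The others were the domain of Zmynd8 and Gm11465 (146 and 96), chr5:143507001-143511600 between Zfp12 and Zfp316 (106 and 65) and chr17:39450801-39456800 (275 and 190). In the last, 34.2% of reads carried a mismatch to the reference, against a median of 16.2% over all domains, and in the other 14 lower domains the share was 8.77% to 17.6%. Chromosomes 1, 2, 5, 6 and 8 each gave more than 1 lower domain, and 9 chromosomes gave at least 1.

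The domain called higher, at chr11:3081201-3096600, 15400 bp wide, held 263 WT and 951 Lsh_KO reads, 2.54-fold higher (2.22 to 2.93). Most of the surplus lay in the twelfth and thirteenth kb, with 55 and 69 WT against 658 and 817 Lsh_KO window reads, and 34.2% of its reads carried a mismatch. The part of mismatched reads in this call was not tested. Mismatched reads passed 25% in 9 of 350 domains, among them the widest, at chr11:3029001-3080000 (51000 bp, 1009 WT and 1789 Lsh_KO reads, 30.6% mismatched). Without these 9, which is a choice made after seeing the data, 341 domains remained, the widest was 12800 bp, and 0 were higher and 14 lower.

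The deposited window lists hold further reads that are absent from the read lists. They are part of the window counts that chose the domains, so their ratios are a description and not an independent repeat. In them the 15 lower domains were 1.75-fold (5730596B20Rik) to 9.52-fold (Hand2os1) lower, and the higher domain was 3.64-fold higher. Over the 350 domains, the log2 ratios of distinct and further reads had the same sign in 291 and a Pearson's r of 0.921. This is a description across domains, both sets of reads come from the same 2 samples, and the spread between cultures was not measured.

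Lengths differed between the lines in both directions. Median lengths were 4000 bp (WT) and 4400 bp (Lsh_KO), with 212 domains longer in Lsh_KO, 103 longer in WT and 35 equal. On its own, 4000 bp was reached by 208 domains in WT, 283 in Lsh_KO, 161 in both and 20 in neither. This order changed with the depth: with Lsh_KO thinned to the WT reads in shared regions, 132 were longer in Lsh_KO and 168 in WT. With the window minimum raised to 9 reads in Lsh_KO, they were 115 and 182. In 15 domains the Lsh_KO length was at most 50% of the WT length, and 11 of these were among the 15 lower calls. In another 15 the WT length was at most 50% of the Lsh_KO length. After thinning these counts became 32 and 2.

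Of the 15 domains that were short in Lsh_KO, 4 (the domains of this paragraph were chosen after their values were seen) were not called lower. They were at Airn (4000 bp in WT, 2000 bp in Lsh_KO), Ehbp1l1 (5200 and 2600 bp), chr5:143521001-143525200 (4200 and 1000 bp) and chr17:87029401-87033600 (4000 and 2000 bp). Airn is an imprinted noncoding RNA antisense to Igf2r, and its scaled level hardly differed, with 82 reads in WT and 114 in Lsh_KO (log2 ratio -0.03). The Ehbp1l1 domain had 204 and 147 reads, a level 1.97-fold lower (1.59 to 2.45), short of the 2-fold rule. The domains at chr5:143521001-143525200 and chr17:87029401-87033600 were 1.69-fold (1.13 to 2.55) and 1.89-fold (1.27 to 2.85) lower. Of the 15 that were short in WT, 10 held a placed start: Lurap1l, Lockd, Amn1, Resf1, Maz, Tnfaip3, Mbd6, Rack1, Filip1l and the C230035I16Rik and Gm40833 domain. Lurap1l went from 1800 bp in WT to 4000 bp in Lsh_KO, with 69 and 194 reads, a log2 ratio of 0.98. Lockd, a noncoding RNA downstream of Cdkn1b, went from 2400 to 5000 bp (73 and 145 reads). Rack1, which encodes a ribosome-bound scaffold protein, went from 2400 to 4800 bp (137 and 267 reads). The domain at chr19:5839401-5849400, between Malat1 and Frmd8, went from 5000 to 10000 bp with 265 and 552 reads, 1.47-fold higher (1.26 to 1.70).

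Among the other widest domains, those at Wt1os and Meis2 were lower in Lsh_KO by less than 2-fold. The Wt1os domain (chr2:104923201-104936000, 12800 bp) holds the start of the antisense RNA of Wt1, a zinc finger factor of the urogenital mesenchyme. It had 616 reads in WT and 485 in Lsh_KO, a level 1.80-fold lower (1.600 to 2.04), short of the 2-fold rule, and its length went from 12800 bp to 8200 bp. Its central kb kept 220 WT and 281 Lsh_KO window reads while the first fell from 24 to 2. The Meis2 domain (chr2:115748601-115760000, 11400 bp), over a homeobox partner of Hox proteins, had 349 and 321 reads, a level 1.54-fold lower (1.32 to 1.80), and its length went from 11000 bp to 7600 bp. The domain at chr5:143078001-143089200, where RefSeq order puts Tnrc18, held 509 and 687 reads (log2 ratio -0.07). The domain at chr18:11048001-11059800 held 460 and 683 (log2 ratio 0.06). A domain of 9800 bp at Pcdh7, a protocadherin, is shown for contrast and was chosen after its values were seen. It held 324 and 637 reads, 1.38-fold higher (1.21 to 1.59), and its longest block went from 3200 bp in WT to 8600 bp in Lsh_KO.

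A gene start was placed in 209 of the 350 domains (59.7%, interval 54.4 to 64.9), against 61.0% of narrower shared regions (60.04 to 61.97). The table holds no promoter of chromosome 18, where 10 of the domains lie, and 131 of the other domains had no placed start. The 209 domains held 314 starts of 252 genes, and 66 domains held at least 2. Long noncoding RNA genes made up 52 of the 252 (20.6%, 15.8 to 26.2), against 11.4% in narrower shared regions (10.7 to 12.2) and 13.04% (10.3 to 16.2) in those of 3 to 4 kb. They were present in 49 domains, 29 of which held no protein-coding start. Starts on both strands were found in 39 of the 209 (18.7%, 13.6 to 24.6), against 14.8% (13.9 to 15.7) of narrower regions with a start. A wider region covers more starts by its length alone, which these shares do not take into account.

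In the 143 domains with a single placed start, the domain reached a median of 1367 bp upstream and 3236 bp downstream of it, and it was longer downstream in 104 (72.7%, 64.7 to 79.8). Over all starts, domains with several included, the 253 protein-coding starts had medians of 1668 bp upstream and 3103 bp downstream. Of these, 168 (66.4%, 60.2 to 72.2) were longer downstream. The 61 starts of noncoding RNA had the opposite order, with 3216 bp upstream and 1955 bp downstream, and 20 (32.8%, 21.3 to 46.0) were longer downstream. Of the 49 domains with a noncoding RNA start, 20 also held a protein-coding start. The sides of a start on the opposite strand are swapped, so the orders of both kinds are not independent. The mean profile around the 314 starts peaked at +400 bp in both libraries, at 17.6 reads per window in WT and 24.97 in Lsh_KO. In narrower regions it peaked at +200 bp, at 19.6 and 27.0 reads. Downstream of the start it stayed above 50% of the peak for 2000 bp in WT and 1800 bp in Lsh_KO, against 800 bp in narrower regions. The height at the peak was thus similar and the length differed, which follows from the width rule. Reads within 3 kb downstream exceeded those upstream 1.53-fold in WT and 1.47-fold in Lsh_KO, and with only single-start domains 2.25-fold and 2.27-fold. Over all starts of narrower regions the values were higher than over those of the domains, 1.82-fold and 1.73-fold.

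**Figure D3:**
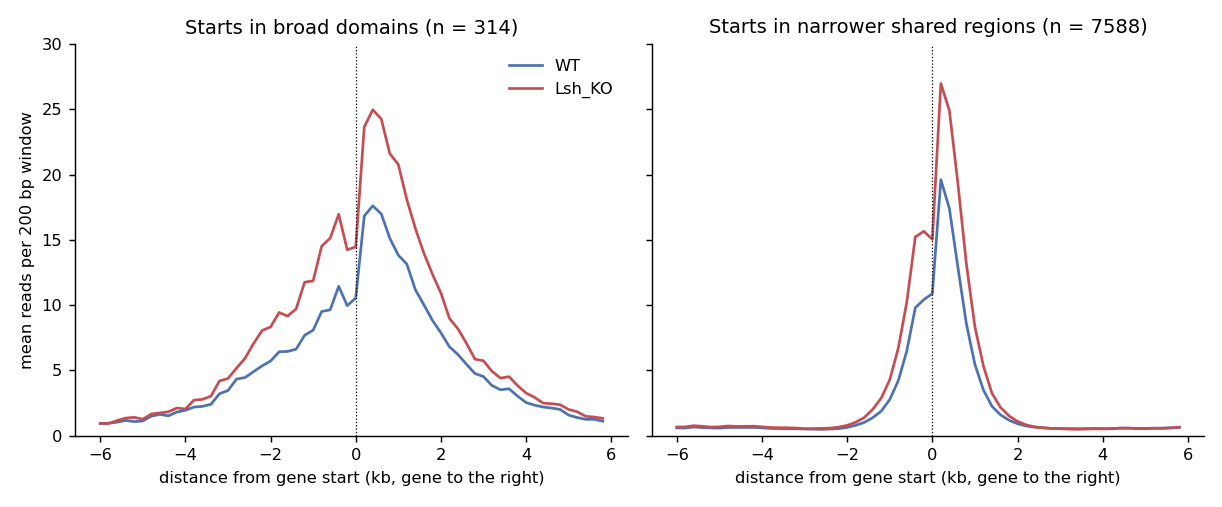
Mean reads per 200 bp window (y) by distance from the gene start in kb (x, gene to the right), for 314 starts in broad domains (left) and 7588 in narrower shared regions (right), WT in blue and Lsh_KO in red, unscaled. The peaks are of similar height, 17.6 and 24.97 against 19.6 and 27.0 reads, and the domains extend farther on both sides.

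Broad domains covered the starts of several transcription factors of mesenchyme. This gene list and those below were chosen with earlier results of these data known. Of 21 such genes of the list with a start in a shared region, 7 lay in a broad domain (33.3%), against 252 of 7129 genes (3.53%) over the whole table. They were Meis2, Meis1, Sox4, Foxp1, Runx1, Foxc1 and Sox11. Meis1, like Meis2 a TALE homeobox factor, had 253 WT and 409 Lsh_KO reads over 7600 bp, 1.14-fold higher (0.970 to 1.34). Sox4, an HMG-box factor of progenitor cells, had 232 and 345 (log2 ratio 0.07), and Foxp1, a forkhead repressor, had 174 and 273 (0.14). Runx1, the runt factor of blood and mesenchyme, had 129 and 181 (-0.02). Foxc1, a forkhead factor of mesoderm and neural crest, had 85 and 155 (0.36). The 7 log2 ratios had a median of 0.07, with 4 above 0 and 3 below, and none was called. Of 3 Hox genes in a shared region, Hoxa2 alone lay in a broad domain.

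Growth factor signalling genes gave 9 of 24 (37.5%). The ligand genes were Bmp4, Vegfa, Tgfb2 and Efnb2. Bmp4, a bone morphogenetic protein of mesoderm, held 245 WT and 418 Lsh_KO reads over 7600 bp, 1.20-fold higher (1.02 to 1.41). Vegfa, the angiogenic growth factor, held 206 and 302 (log2 ratio 0.04), and Efnb2, the membrane-bound ligand of Eph receptors, held 141 and 293, 1.46-fold higher (1.19 to 1.80). The receptor genes were Ptch1, the Hedgehog receptor (171 and 235 reads, -0.05), Igf1r and Fzd1. Smad3, the signal carrier of TGF-beta, held 130 and 191 (0.05). Spry2, a feedback inhibitor of receptor tyrosine kinases, held 223 and 424 reads, 1.34-fold higher (1.14 to 1.58). Lsh_KO had 6800 bp of it and WT 6400 bp. The 9 log2 ratios ran from -0.63 to 0.55 with a median of 0.05, and none was called.

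Immediate early, growth and stress response genes gave 7 of 28 (25%). Fosl2, a subunit of the AP-1 factor, had 261 WT and 427 Lsh_KO reads over 7400 bp, 1.15-fold higher (0.985 to 1.35), and Junb, another subunit, had 124 and 198 (log2 ratio 0.17). Zfp36l1, which promotes decay of mRNAs with AU-rich elements, had 235 and 347 (0.06). Klf9, a Krüppel-like factor, had 181 and 251 (-0.04). The list also held the cell cycle inhibitors Cdkn1b (179 and 298, 0.23) and Cdkn2a (132 and 197, 0.07). Cdkn1b reached 4400 bp in each library. Cdkn2a, the gene of a growth barrier of cultured fibroblasts, reached 4000 bp in Lsh_KO and 3800 bp in WT, short of the minimum there. The remaining member was Ubb. The median log2 ratio was 0.17, with 6 of 7 above 0, and none was called.

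Matrix and cytoskeleton genes gave 4 of 23 (17.4%). Zyx, a focal adhesion protein, had 236 WT and 370 Lsh_KO reads over 6400 bp (log2 ratio 0.14). Serpinh1, the collagen chaperone, had 205 and 292 (0.00), and Tpm1, an actin-binding tropomyosin, had 191 and 296 (0.13). Col3a1, the fibrillar collagen III gene whose promoter holds no CG, had 59 and 164 reads, 1.96-fold higher (1.44 to 2.68), just under the 2-fold rule. Its region was 2600 bp long in WT and 5000 bp in Lsh_KO and lay wholly downstream, with 83 bp before the start and 4916 bp after it. Scaled by total reads its log2 ratio was 1.30.

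Chromatin regulators gave 2 of 26 (7.69%). Kmt2d had 244 reads in WT and 268 in Lsh_KO, a level 1.29-fold lower (1.083 to 1.54), and Jarid2, a partner of the Polycomb complex that methylates H3K27, had 113 and 157 (log2 ratio -0.03). Imprinted genes gave 2 of 11, Airn and Peg3. Peg3, a paternally expressed zinc finger gene, had 97 and 93 reads, 1.48-fold lower (1.104 to 1.99). Of the pluripotency and germline genes 1 had a start in a shared region, and it was not broad. These lists were compiled by function, with earlier results of these data known, and membership in a broad domain was set by the rule. The shares are thus descriptions with wide intervals (for signalling genes 18.8 to 59.4%) and no test of the lists.

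Broad domains were less CpG-rich than narrower regions when taken as a whole. The median GC content of their reads was 57.1%, against 59.2% in narrower shared regions, and the median ratio of observed to expected CpG was 0.61, against 0.70. A region is called CpG-rich here when GC passes 50% and this ratio passes 0.6. By that rule 178 of 350 domains were CpG-rich (50.9%, 45.5 to 56.2), against 71.8% of narrower regions (70.9 to 72.7) and 64.0% of those of 3 to 4 kb (60.2 to 67.6). Within single-start domains, the ratio was 0.78 in the 500 bp after the start, the same as in narrower regions (0.78), and fell to 0.66 at 500 to 1000 bp, 0.52 at 1 to 2 kb and 0.36 at 2 to 3 kb. The read density over these steps was 45.2, 50.8, 41.3 and 24.5 WT reads per kb, against 48.3 in the first 500 bp of narrower regions. Narrower regions that reached as far had 0.59, 0.46 and 0.37 in the last 3 steps, with 36.3, 23.0 and 17.3 WT reads per kb. In the single-start domains the ratio was higher again at 3 to 4 kb, at 0.43. Upstream of the start it fell less, from 0.75 in the nearest 500 bp to 0.55 at 2 to 3 kb. H3K4me3 in the domains thus ran from promoters of usual CpG content over DNA of lower CpG content. The density away from the start is fixed in part by the width rule and is a description.

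**Figure D4:**
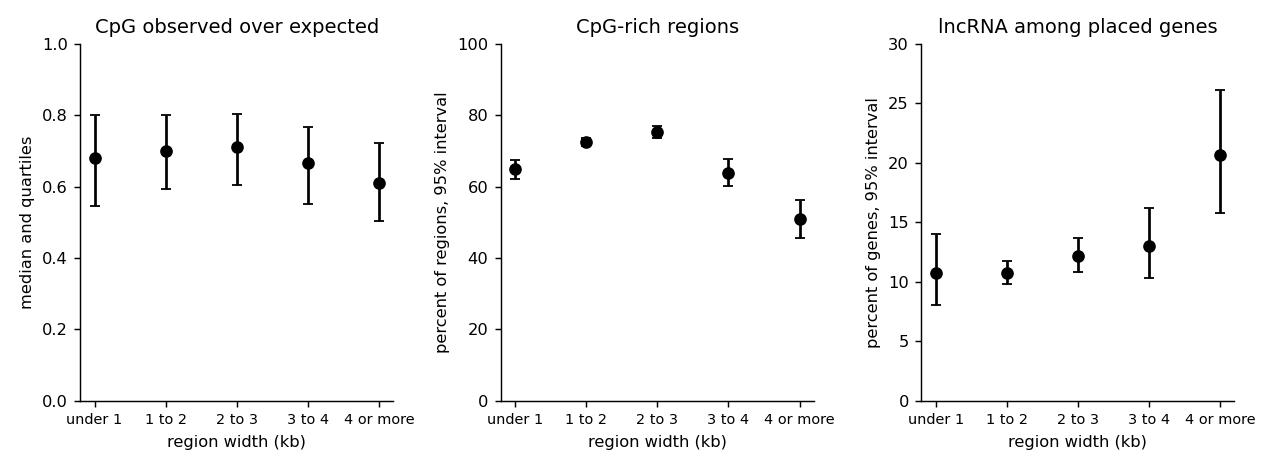
Shared regions grouped by width in kb (x): median observed over expected CpG with quartiles (left), percent of regions that are CpG-rich (middle) and percent of placed genes that are long noncoding RNA genes (right), the last with 95% binomial intervals as in the middle panel. Regions of 4 kb or more stand at 0.61, 50.9% and 20.6%, and those of 1 to 2 kb at 0.70, 72.6% and 10.8%.

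The scaled ratio between the lines was near 0 on the log2 scale close to the start and lower in some outer steps. Over all 143 single-start domains, the log2 ratio was -0.03 (interval -0.09 to 0.04) in the 500 bp after the start, -0.04 (-0.10 to 0.02) at 500 to 1000 bp, 0.00 (-0.05 to 0.05) at 1 to 2 kb, -0.10 (-0.17 to -0.02) at 2 to 3 kb and 0.00 (-0.11 to 0.11) at 3 to 4 kb. Upstream it was 0.02 (-0.07 to 0.11) at 1 to 2 kb and -0.19 (-0.30 to -0.08) at 2 to 3 kb. The steps whose interval lay below 0 were those at 2 to 3 kb on either side. Without the called domains, 139 single-start domains remained and both of these intervals held 0. The log2 ratio there was -0.07 (-0.14 to 0.01) downstream and -0.005 (-0.12 to 0.11) upstream. Leaving out domains called lower raises the ratio by construction, so these values are a description. The upstream value moved from -0.19 to -0.005, and the downstream value only from -0.10 to -0.07. Narrower regions with a single start had -0.05 (-0.06 to -0.04) in the 500 bp after the start, 0.10 (0.08 to 0.11) at 500 to 1000 bp and -0.26 (-0.35 to -0.18) at 2 to 3 kb. The 15 lower domains had a median observed over expected CpG of 0.54, against 0.61 in those not called.

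The motif TATAAA, the core of the TATA box, was searched on both strands (TATAAA or TTTATA) in the 250 bases before the placed starts. It was found at 29 of 314 starts in broad domains (9.24%, 6.27 to 12.99), at 4.28% (3.84 to 4.76) of starts in narrower regions and at 12.4% of all promoters of the table. Among the sequences shown, Col3a1 holds it, near the middle of the 250 bases. The search took no account of the distance from the start. A match is a sequence of letters and not a measured binding site.

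Precursors of 6 microRNAs lay in broad domains, found by reads that match the hairpins. The mature sequences of 3 with known roles in fibroblasts or development are shown 5′ to 3′ from RefSeq, with the seed (bases 2 to 8) in capitals.
mmu-miR-21a-5p: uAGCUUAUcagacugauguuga
mmu-miR-125b-5p: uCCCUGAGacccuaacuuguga
mmu-let-7e-5p: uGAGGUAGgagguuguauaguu
The 3 seeds differ. Few reads matched the hairpins: 8 WT and 2 Lsh_KO for Mir21a, 1 and 4 for Mir125b-1, and 0 and 2 for Mirlet7e. The domain of Mir21a, a microRNA of fibroblast growth and fibrosis (chr11:86398801-86403200), held 160 WT and 334 Lsh_KO reads, a log2 ratio of 0.55. That of Mir125b-1 (chr9:41330801-41337200, 6400 bp) held 173 and 331 reads (0.43). That of Mirlet7e, of the let-7 family that restrains growth (chr17:17530601-17535200), held 218 and 255 reads (-0.28). The remaining 3 were Mir1932, Mir5135 and Mir7653, with log2 ratios of 0.06 to 0.31. Their hairpin reads were 3 WT and 9 Lsh_KO, 0 and 5, and 1 and 2. None of the 6 domains was called.

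The domains were spread over all 19 chromosomes, with 7 on chromosome 12 and 41 on chromosome 11. As a share of shared regions they ran from 2.07% on chromosomes 3 and 12 to 5.06% on chromosome 17. The ratio moved with the chromosome. All 10 domains on chromosome 18 were above 0 (median log2 ratio 0.48) and all 9 on chromosome 16 were below (-0.23). Background reads outside marked windows moved in the same direction, at 0.49 on chromosome 18 and -0.44 on chromosome 16. With the background ratio of the surrounding 5 Mb in the scaling, the medians became -0.05 and 0.13. In that scaling the log2 ratios of Hand2os1, Fendrr and Hoxa2 were -2.48, -2.60 and -2.63.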

How the data were processed

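H3K4me3 was measured by sequencing of precipitated MNase fragments in 1 WT and 1 Lsh_KO library. The authors deposited, per library, a list of aligned 25-base reads with an alignment score, which was not used here, and counts of reads per 200 bp window. Both are on mm8 per the submitters' processing notes, with no aligner named there. The deposited window counts hold 4070117 WT and 4550293 Lsh_KO reads, more than the read lists (2869399 and 3428628), by a rule the sources do not state.

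Domains were built from the window counts. Distinct reads (position and strand), moved 75 bp, were counted per region. Ratios have exact conditional (Clopper-Pearson) intervals, and no p-value was computed. Starts were placed where at least 2 read positions gave the same start within 2 bp. RefSeq tables (GRCm38.p6) gave names and neighbour order only, and no coordinate was converted. Named domains are the 8 widest, the 8 densest, up to 10 calls per direction, 3 on each side of the width threshold and up to 6 genes per list. The members and gene lists were chosen with earlier results of these data known. The scripts were tested on simulated data. The tools were scipy 1.17.1, numpy 2.4.6 and pandas 2.3.3 under Python 3.11.15, and figures were drawn with matplotlib 3.10.9.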

Additional observations from a re-analysis of the deposited data

Results flagged for a closer look

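Chromosome X lies outside the rule for the domains. It held 5 shared regions of at least 4000 bp, of 297 shared regions on that chromosome, in data that the comparisons above do not use. They held the starts of Tfe3, Bcorl1 and Hcfc1 and 2 unnamed positions. The Tfe3 region, over the gene of a lysosomal and metabolic transcription factor, held 45 WT and 147 Lsh_KO reads, 2.30-fold higher in Lsh_KO (1.64 to 3.29), and was 1600 bp long in WT and 4000 bp in Lsh_KO. The other 4 had log2 ratios of 0.12 to 0.51.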

How the results depend on the processing

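No paired analysis was possible because each line has 1 library, and for the same reason no library could be left out in turn. The number of domains was 222 with a window minimum of 8 reads, 131 with a width minimum of 5000 bp, 1016 with 3000 bp and 161 where each library alone had to reach 4000 bp. Their share of WT and Lsh_KO reads was then 1.62% and 2.05%, 1.12% and 1.38%, 5.08% and 6.44%, and 1.29% and 1.64%. It was 2.91% and 3.63% with a window minimum of 5, 1.89% and 2.38% with a join gap of 600 bp, 2.68% and 3.34% with 1400 bp, 1.88% and 2.31% with the deeper library thinned, and 2.24% and 2.78% without the domains with over 25% mismatched reads. The median width difference, Lsh_KO minus WT, went from 400 to -200 bp with the minimum scaled to 9 reads (115 longer in Lsh_KO, 182 in WT), and to 0 bp with Lsh_KO thinned (132 and 168).

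The median log2 ratio was 0.35 scaled by total reads, -0.032 by the median of shared regions and 0.091 with the 5 Mb background. Domains called higher numbered 9, with 7 lower, by total reads, 2 with the 5 Mb background, 6 with all listed reads, 2 with window counts, 4 with further reads, 17 (33 lower) at 1.5-fold and 0 without the mismatched domains. Shares over all shared regions stand above for the main scaling, total reads and 1.5-fold. The other counts have no such share beside them and are not read as a result about the domains. Of the 15 lower calls, 7 were also called by total reads, and 13 to 15 under each of the other settings. Median GC was 57.9% with WT reads only. Blocks covered 54.0% of WT and 64.0% of Lsh_KO width with a minimum of 8 reads, and 43.5% and 57.1% from the read lists. The downstream to upstream ratio was 1.51 and 1.45 from the read lists, and 2.25 and 2.27 with single starts. The cause of these shifts was not tested.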
